A study of Mus musculus with 8 samples.

Results

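The transcripts of 10 transcription factors that set and maintain the identity of lung epithelial cells, Nkx2-1, Foxa1, Foxa2, Gata6, Sox2, Sox9, Cebpa, Etv5, Elf3 and Klf5, were followed across α7 genotype and cigarette smoke (CS) in epithelium-enriched cells of the mouse distal lung. They were found by symbol among the 22756 genes of each library, and all 10 were present. RNA-Seq reads on coding sequences (CDS) had been counted in 8 libraries. Each of 4 groups had a male library and a female one. These groups were Chrna7-IRES-tauGFP mice (α7G) and Chrna7-E260A-IRES-tauGFP mice (α7E260A:G), each as room air controls and after side-stream CS on 5 days per week for 4 months. All mice were adult and >90percent C57BL/6, and all carried the tauGFP reporter in Chrna7, the gene of the nicotinic α7 receptor. The E260A substitution limits the coupling of the receptor to calcium signaling, it is present in every cell that uses the gene, and it cannot be seen in counts. The lungs had been lavaged and the CD45-positive cells depleted before RNA was made. The number of mice behind a library is not stated, so tests measure the spread between these libraries, and within a group that spread is also the difference between a male and a female library.

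Lung epithelium is specified and kept in its state by a small network of DNA-binding proteins. Nkx2-1, a homeobox factor, marks the lung lineage from its first appearance and drives surfactant and secretoglobin genes in adult ATII and club cells. The forkhead factors Foxa1 and Foxa2 and the zinc finger factor Gata6 act with it at many of the same genes, while Sox2 marks the conducting airway and Sox9 the growing distal tips of the embryonic lung.

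The promoters of the factors are shown because members of such networks can carry each other's binding letters close to the gene start. RefSeq windows of the GRCm38.p6 build were matched for 7 of the factors, as 10 windows, and only the 250 bases before the start were searched, on both strands. Klf5 and Sox9 had no window, and Gata6 was not searched. Forkhead proteins were searched by the letters TGTTTAC, a core that Foxa1 and Foxa2 both bind. For the homeobox factor Nkx2-1 the letters were CAAGTG, its short core. SOX factors were searched by ACAATG, and GATA factors by AGATAA, in the same windows. Capitals mark a match, and the Foxa1 window and 1 of the 2 Etv5 windows carry the forkhead letters on the opposite strand, so that their reverse complement is printed. The windows are chr12:57546112-57546361 (Foxa1), chr16:22439571-22439820 (Etv5), chr1:135258473-135258722 (Elf3) and chr12:56536909-56537158 (Nkx2-1), all on the minus strand and printed 5′ to 3′ in the direction of the gene.
Foxa1: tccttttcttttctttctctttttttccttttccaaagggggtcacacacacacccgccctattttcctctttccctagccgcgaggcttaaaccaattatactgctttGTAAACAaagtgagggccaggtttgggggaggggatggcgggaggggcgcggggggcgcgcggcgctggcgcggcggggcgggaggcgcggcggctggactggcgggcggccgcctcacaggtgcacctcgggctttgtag
Etv5: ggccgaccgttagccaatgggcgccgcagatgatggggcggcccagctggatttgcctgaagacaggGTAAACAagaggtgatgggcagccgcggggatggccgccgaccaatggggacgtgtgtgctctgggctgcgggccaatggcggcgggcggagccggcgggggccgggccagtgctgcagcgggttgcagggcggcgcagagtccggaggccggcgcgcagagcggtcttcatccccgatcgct
Elf3: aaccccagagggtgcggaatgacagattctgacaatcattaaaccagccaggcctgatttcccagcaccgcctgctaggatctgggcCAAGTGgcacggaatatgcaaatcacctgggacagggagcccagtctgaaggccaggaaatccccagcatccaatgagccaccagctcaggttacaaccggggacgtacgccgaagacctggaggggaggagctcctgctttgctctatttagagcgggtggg
Nkx2-1: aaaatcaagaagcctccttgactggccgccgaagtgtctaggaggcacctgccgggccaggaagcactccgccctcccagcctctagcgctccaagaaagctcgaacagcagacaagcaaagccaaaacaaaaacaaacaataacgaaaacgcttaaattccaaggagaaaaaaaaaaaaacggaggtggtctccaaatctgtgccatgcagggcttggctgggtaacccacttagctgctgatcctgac

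The forkhead letters lie 141 bases before the start of Foxa1 and 183 bases before the start of Etv5, and 3.17% of the 32851 windows of the same length in the RefSeq table hold them. The NKX2-1 letters lie 163 bases before the start of Elf3 and are held by 11.6% of all windows. The Nkx2-1 window holds none of the 4 motifs. One of the 3 Foxa2 windows holds the GATA letters (9.99% of all windows), and none of the 10 windows searched holds the SOX letters (10.7% of all windows). A match is a description of letters and not a binding site.

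Total CDS counts were 8020726 to 10944100 per library, so that 3 counts, taken as the floor, equal 0.27 to 0.37 RPM (counts per 1000000 CDS counts of the library). Counts changed with CDS length differently between libraries, with slopes from -0.27 (female α7E260A:G control) to 0.37 (male α7E260A:G control) log2 units per doubling of length. The fraction is labelled as depleted of CD45-positive cells and over 95% Epcam-positive. Ptprc, which encodes CD45, was at 771 to 1935 RPM, and Epcam was at 78.5 to 212 RPM. These levels are not adjusted for CDS length, and RNA levels do not give shares of cells. All 9 macrophage markers examined were detected in every library, with a summed level of 19373 to 27829 RPM in α7G and 34226 to 58411 RPM in α7E260A:G. Most of this sum was Chi3l3 and Lyz2, with means of 17662.5 and 13067 RPM over the 8 libraries. In bulk RNA, fewer cells of a type and less RNA of a gene per cell cannot be told apart.

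Per kilobase of CDS, Cebpa, a leucine zipper factor of ATII cell maturation that myeloid cells also use, and Elf3, an ETS factor of epithelial differentiation, were the most abundant of the 10. Their mean levels over the 8 libraries were 33.6 ± 7.27 and 30.6 ± 10.2 RPM per kb (SD, n = 8). Nkx2-1 followed at 16.5 RPM per kb, then Foxa2 at 12.9, Foxa1 at 12.3, Sox2 at 11.1, Klf5 at 10.6 and Etv5 at 9.83 RPM per kb. Gata6 was lower, at 3.89 RPM per kb, and Sox9 was lowest at 0.242 RPM per kb. The order was taken from these same 8 libraries, of all 4 groups, so the direction of each step was set before its test. Of the 9 steps between neighbors 3 were larger than the spread, from Elf3 to Nkx2-1, Etv5 to Gata6 and Gata6 to Sox9. Each had the same order in 8 of 8 libraries (two-sided exact sign-flip permutation p = 0.0078, adjusted over 9 steps 0.0234). This is the smallest p that 256 sign flips allow. The 6 other steps did not exceed the spread (adjusted p = 0.211 to 0.672), so the middle of the order from Nkx2-1 to Etv5 is not resolved step by step.

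**Figure D1:**
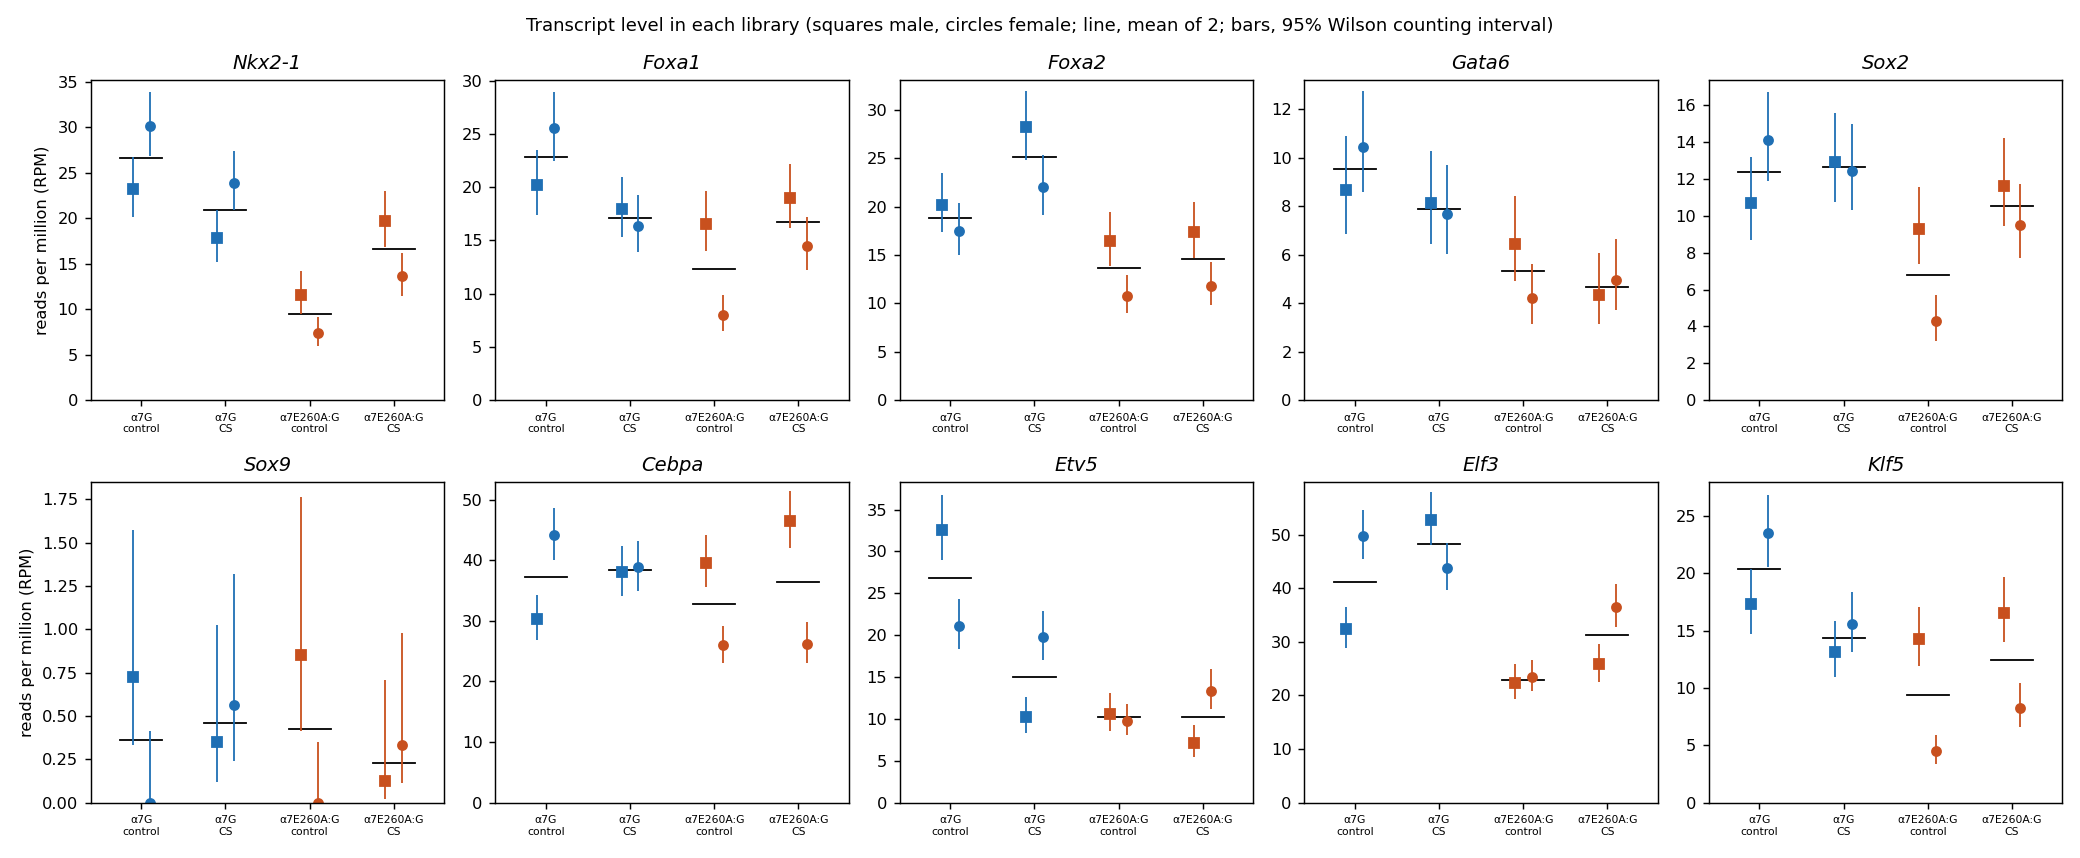
Transcript level of each factor in RPM (y axis) in the 4 groups (x axis), with squares for male and circles for female libraries, a line for the mean of 2 and bars for the 95% Wilson counting interval. Gata6 and Foxa2 have all 4 α7E260A:G libraries below all 4 α7G libraries, and Sox9 lies at or near the floor throughout.

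Sox9, the factor of embryonic distal tips, had 0 to 7 counts per library. It had no count in the female control of either genotype. The Wilson counting interval there reached up to 0.410 RPM in α7G and 0.351 RPM in α7E260A:G. Sox9 was highest in the male α7E260A:G control, at 0.853 RPM. With a mean of 3.1 counts it did not reach the minimum mean count of 10 that was set for testing, and no difference could be detected at this depth. The other 9 factors passed that filter, which is taken over all 8 libraries, among 13637 genes tested. The study's own minimum mean count of 200 is reached by 2 of the 10, Cebpa and Elf3.

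The first comparison was between the genotypes, over both exposures. All 9 factors tested had a lower fitted level in α7E260A:G, with a median log2 difference of -0.64 against 0.026 over all 13637 genes, but when libraries were scaled by 5 general epithelial markers (Epcam, Cdh1, Krt8, Krt18 and Krt19) only 5 of 9 were lower and the median was -0.04. None passed an adjusted p of 0.05 by edgeR's quasi-likelihood test with TMM normalization, where 13 genes of 13637 did (0.0953%). At an unadjusted p under 0.05, 5 of 9 were lower (Nkx2-1, Foxa2, Gata6, Etv5 and Elf3), compared with 5.49% of all genes, and none was with the epithelial scaling. By DESeq2 1 factor was called, Nkx2-1, with 516 genes in all (3.78%). The epithelial scaling changes the reference for all genes and moved their median from 0.026 to 0.58. The place of the factors among all genes was not ranked under either scaling.

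In the mm9 build the Nkx2-1 gene occupies bases 57632922 to 57637895 of chromosome 12, on the minus strand. Its level in α7G was 23.2 RPM in the male and 30.1 RPM in the female control, and 17.8 and 23.9 RPM after CS. In α7E260A:G it was 11.6 and 7.4 RPM in the male and female controls and 19.7 and 13.6 RPM after CS. The 2 α7E260A:G controls were the lowest libraries, and the genotypes overlapped only in the male CS libraries. The log2 difference was -0.85 ± 0.22 (SE, edgeR adjusted p = 0.179, lower in 3 of 4 pairs matched for sex and exposure), the DESeq2 difference was -0.84 with an adjusted p of 0.0418, and the epithelial scaling left -0.28.

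Foxa2 and Foxa1 encode forkhead proteins that open chromatin at endoderm genes. Foxa2 was at 20.2 and 17.5 RPM in the male and female α7G controls and at 28.2 and 22.0 RPM after CS. The α7E260A:G libraries were at 16.4 and 10.8 RPM in controls and at 17.3 and 11.8 RPM after CS. No α7E260A:G library reached the lowest α7G library. The same separation was seen for 2 of the 9 factors, Foxa2 and Gata6, and in 5.54% of all genes in this direction. With 4 against 4 libraries a full separation always gives the smallest two-sided exact permutation p (0.0286, 70 arrangements). This p restates the separation and was not adjusted over the factors. The log2 difference of Foxa2 was -0.56 ± 0.20 (edgeR adjusted p = 0.311), and it was 0.0027 with epithelial scaling.

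Foxa1 lies 1003723 bp from Nkx2-1 on the same chromosome. It was at 20.2 and 25.5 RPM in the male and female α7G controls, at 17.9 and 16.4 RPM after CS, at 16.6 and 8.0 RPM in the α7E260A:G controls and at 19.0 and 14.5 RPM after CS. The groups overlapped, since the male α7E260A:G CS library exceeded both α7G CS libraries. Foxa1 differed by -0.42 ± 0.23 on the log2 scale (edgeR adjusted p = 0.570) and turned to 0.17 with epithelial scaling.

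Gata6, which works with Nkx2-1 in surfactant gene control and is also used by vascular smooth muscle, is encoded on chromosome 18 of mm9 from 11052508 to 11085633. It was at 8.7 and 10.5 RPM in the male and female α7G controls and at 8.1 and 7.7 RPM after CS. Levels in α7E260A:G were 6.5 and 4.2 RPM in controls and 4.4 and 5.0 RPM after CS. The 2 genotypes did not overlap, and the log2 difference was -0.73 ± 0.25 (edgeR adjusted p = 0.305), or -0.17 with epithelial scaling. With 35 to 98 counts per library, Gata6 carries the largest counting error of the factors tested (12.8%).

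Sox2, a factor of airway progenitors and club cells, was at 10.7 and 14.1 RPM in the male and female α7G controls and at 12.9 and 12.4 RPM after CS. Sox2 in α7E260A:G was at 9.3 and 4.3 RPM in controls and at 11.6 and 9.5 RPM after CS. The α7E260A:G female control was far below all other libraries, while the male CS library lay within the α7G range. The fitted log2 change of Sox2 was -0.52 ± 0.25 (edgeR adjusted p = 0.523) and turned to 0.061 with epithelial scaling.

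Etv5, an ETS factor that acts downstream of FGF receptors and helps to maintain ATII cells, was at 32.6 and 21.1 RPM in the male and female α7G controls and at 10.2 and 19.7 RPM after CS. In α7E260A:G it was at 10.6 and 9.8 RPM in controls and at 7.1 and 13.4 RPM after CS. The male α7G CS library lay within the α7E260A:G range. The log2 difference was -0.87 ± 0.34 (edgeR adjusted p = 0.376), or -0.39 with epithelial scaling. Its spread over the 8 libraries was the largest of the 9 factors tested, with a CV of 54.3% against a counting error of 8.51%.

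Elf3 was at 32.5 and 49.9 RPM in the male and female α7G controls and at 52.8 and 43.9 RPM after CS. Elf3 in α7E260A:G was at 22.4 and 23.5 RPM in controls and at 25.8 and 36.6 RPM after CS. Only the female α7E260A:G CS library exceeded the lowest α7G library. The log2 difference was -0.64 ± 0.25 (edgeR adjusted p = 0.381), lower in 4 of 4 pairs matched for sex and exposure, and -0.08 with epithelial scaling. Divided by the geometric mean of the 5 epithelial markers, Elf3 ranged only from 0.145 to 0.187 over the 8 libraries, and its CV was 10.2% in place of 33.2%.

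Klf5, a zinc finger factor of epithelial proliferation and alveolar repair, was at 17.3 and 23.5 RPM in the male and female α7G controls and at 13.2 and 15.6 RPM after CS. In α7E260A:G it was at 14.3 and 4.5 RPM in controls and at 16.6 and 8.3 RPM after CS. Both male α7E260A:G libraries lay within the α7G range and both female libraries lay below it. For Klf5 the log2 difference was -0.65 ± 0.34 (edgeR adjusted p = 0.561), or -0.04 with epithelial scaling.

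Cebpa had the smallest fitted difference with TMM scaling and the largest with epithelial scaling. It was at 30.3 and 44.1 RPM in the male and female α7G controls and at 38.1 and 38.8 RPM after CS, and in α7E260A:G at 39.6 and 26.0 RPM in controls and at 46.5 and 26.2 RPM after CS. The highest level was in the male α7E260A:G CS library, and the 2 female α7E260A:G libraries were the lowest. For Cebpa the log2 difference was -0.08 ± 0.22 (edgeR adjusted p = 0.954). With epithelial scaling it turned to 0.52 (edgeR adjusted p = 0.186), and the CV of Cebpa was 29.5% in place of 21.6%. Cebpa is also a gene of macrophages, whose 9 markers all had higher fitted levels in α7E260A:G. Among them Ptprc differed little, at 1224 ± 552 RPM in α7G and 1267 ± 460 RPM in α7E260A:G. The part of macrophages in the level of Cebpa was not tested.

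**Figure D2:**
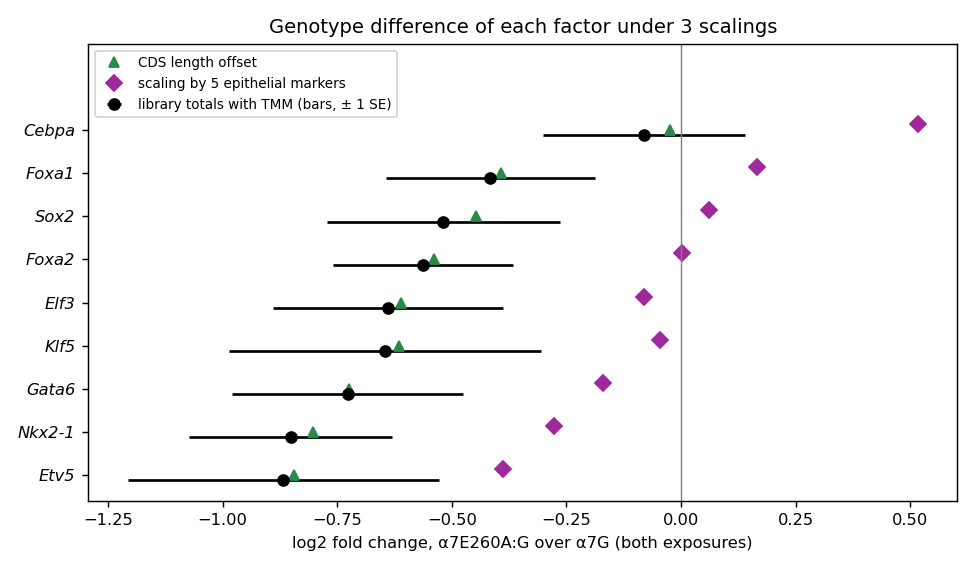
Log2 fold change of α7E260A:G over α7G for the 9 factors tested (x axis), with library totals adjusted by TMM (black, ± 1 SE), with an added offset for CDS length (green) and with libraries scaled by 5 epithelial markers (purple). All black and green points are below 0, while the purple points of Cebpa, Foxa1, Sox2 and Foxa2 are above it.

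The low values were not spread evenly over the libraries. The female α7E260A:G control was the lowest of the 8 for 7 of the 9 factors, and the female α7G control was the highest for 5 of 9. These counts are in RPM, and the shares over all genes were not counted. Other lists were also low in the female α7E260A:G control. On the log2 scale over the α7G mean, the factors were at -1.15 there and general epithelial markers at -0.97. Other lung factors were at -1.08, Nkx2-1 targets at -1.06, endothelial markers at -1.41 and mesenchymal markers at -0.59, while macrophage markers were at 0.93. Without the female α7E260A:G control the 9 factors still had lower fitted levels in α7E260A:G, with a median of -0.50, but the epithelial scaling that turned 4 of them was not repeated without it.

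The other gene lists were compared between the genotypes in the same fit. Of 12 known lung targets of Nkx2-1, 12 had a lower fitted level in α7E260A:G (median log2 -1.17), and 11 of 12 did with epithelial scaling (median -0.68). None passed the adjusted p. Scgb1a1, the main secretory protein of club cells, was at 46758 ± 8537 RPM in α7G and 26882 ± 13857 RPM in α7E260A:G (SD, n = 4), and Sftpc, the surfactant protein of ATII cells, was at 15200 ± 3522 and 5558 ± 3359 RPM. Scgb3a2, a further secretoglobin that like Scgb1a1 also stands in the club cell list, was at 3645 ± 1483 and 1989 ± 910 RPM. Of 25 other lung epithelial transcription factors tested, 20 were lower (median -0.37), but only 10 with epithelial scaling (median 0.24), and none was called. The 3 most abundant of these had log2 differences of -0.38 ± 0.31 for Foxj1 (the ciliated cell factor), -0.09 ± 0.19 for Srebf1 (lipid synthesis) and 0.0027 ± 0.29 for Id2. Irx1, Irx2, Irx3 and Irx5, of the Iroquois homeobox family, and Elf5 and Ehf, relatives of Elf3, were the 6 of this list with an unadjusted p under 0.05, and were named after their values were seen. Irx1 was at 39.2 ± 9.75 RPM in α7G and 12.1 ± 1.85 RPM in α7E260A:G (log2 -1.60 ± 0.25, edgeR adjusted p = 0.0921).

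Of 9 genes of FGF receptor signaling tested, 6 were lower (median -0.03), but only 2 with epithelial scaling (median 0.51), and none was called. The abundant Dusp6, which dampens ERK signaling, and Fgfr3 had log2 differences of -0.02 ± 0.22 and -0.04 ± 0.35, while Fgfr2, the receptor for Fgf10 in lung epithelium, was at 60.3 ± 16.7 RPM in α7G and 29.7 ± 7.79 RPM in α7E260A:G (log2 -0.92 ± 0.18, edgeR adjusted p = 0.116).

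Markers of cell types were compared in the same way, and 1 of them was called. Of the 5 epithelial markers 4 had a lower fitted level in α7E260A:G (median -0.69), with the most abundant, Krt19, at 0.03 ± 0.25, Cdh1 at -0.28 ± 0.32 and Krt18 at -0.77 ± 0.26 on the log2 scale. Fitted levels were lower for markers of type 1 alveolar cells (6 of 6, median -0.80, most abundant Ager, Aqp5 and Pdpn), club cells (5 of 5, median -0.67, most abundant Scgb1a1, Cyp2f2 and Scgb3a2) and endothelium (6 of 6, median -0.37, most abundant Pecam1, Cdh5 and Cldn5). In females the endothelial geometric mean was 32.7 (control) and 43.5 RPM (CS) in α7E260A:G, against 76.8 and 84.0 RPM in α7G. In males it was 99.1 and 83.2 RPM against 89.1 and 99.6 RPM, higher in the control pair. Ciliated cell markers were divided (4 of 7 lower, median -0.04, most abundant Foxj1, Rsph1 and Dynlrb2). Fitted levels of macrophage markers were higher in 9 of 9 (median 0.92, most abundant Chi3l3, Lyz2 and Ptprc) and mesenchymal markers in 7 of 7 (median 0.65, most abundant Col1a2, Col3a1 and Col1a1). In males the mesenchymal geometric mean was 117 (control) and 89.0 RPM (CS) in α7E260A:G, against 42.5 and 60.9 RPM in α7G. In females it was lower in both pairs, at 33.3 and 52.5 RPM against 39.7 and 60.9 RPM. Ptprc itself was at 1224 ± 552 and 1267 ± 460 RPM in α7G and α7E260A:G. Among lymphocyte markers, whose cells are also CD45-positive, the 2 most abundant had lower fitted levels in α7E260A:G, opposite to the macrophage markers. Cd79a was at 536 ± 157 RPM in α7G and 240.5 ± 40.0 RPM in α7E260A:G (log2 -1.02 ± 0.26, edgeR adjusted p = 0.176), and Ms4a1 was at 265 ± 40.0 and 123 ± 14.2 RPM (log2 -0.999 ± 0.21, edgeR adjusted p = 0.119). With epithelial scaling, where all genes shift upward as given above, the medians of type 1 alveolar and club cell markers were -0.27 and -0.18, while those of endothelial and ciliated cell markers turned to 0.22 and 0.52. Of all these list genes only Msr1, a macrophage scavenger receptor, was called, at 12.8 ± 6.42 RPM in α7G and 77.5 ± 11.6 RPM in α7E260A:G (log2 2.85 ± 0.24, edgeR adjusted p = 0.0143). The part of the macrophage and mesenchymal cells in the levels of the 9 factors was not tested.

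**Figure D3:**
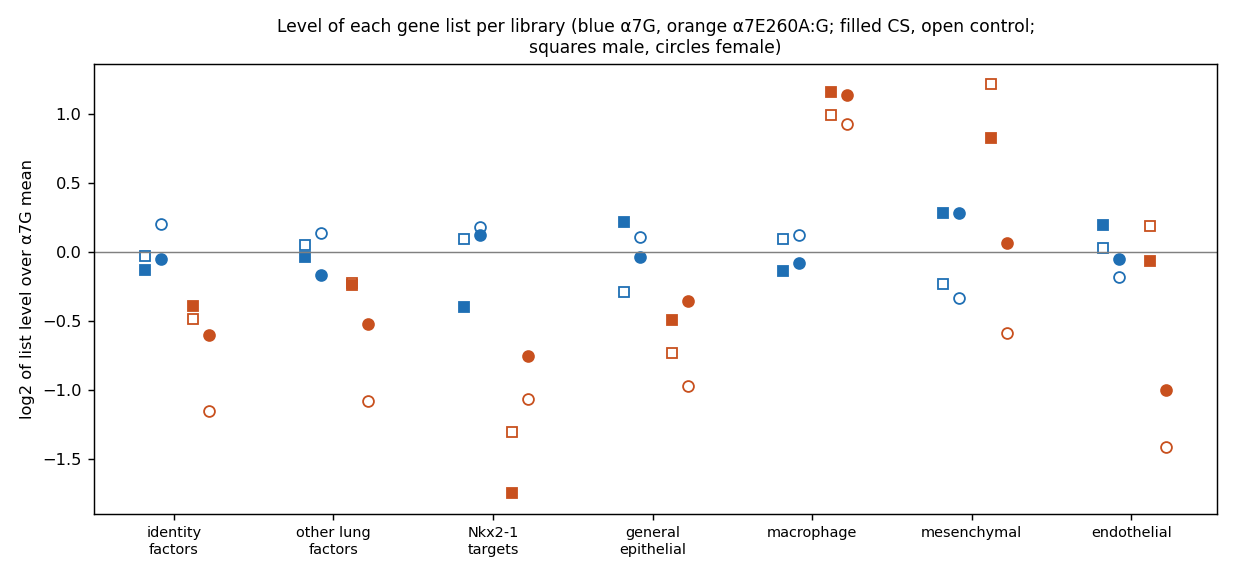
Geometric mean level of 7 gene lists in each library (y axis, log2 over the mean of the 4 α7G libraries), blue for α7G, orange for α7E260A:G, filled for CS, open for control, squares for male and circles for female. The identity factors lie from -0.39 to -1.15 in α7E260A:G and from -0.13 to 0.20 in α7G, and macrophage markers lie from 0.93 to 1.16 in α7E260A:G.

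The second question was how each genotype responded to CS. In α7G no factor was called by edgeR, where no gene was called at all (0.0%, with 915 genes at an unadjusted p under 0.05 and 25 called by DESeq2). A fit of the 4 α7G libraries alone called 980 genes and again no factor. Fitted log2 changes of the 9 ran from -0.69 ± 0.47 for Etv5 to 0.55 ± 0.28 for Foxa2, with a median of -0.14, 4 above 0 and 5 below, and with epithelial scaling 7 of 9 were below 0 and the median was -0.45, while the median of all genes went from 0.0016 to -0.33. Of the 5 scaling markers themselves, 4 had a fitted CS change above 0 in α7G (median 0.48), and none was called. The change of Etv5 rested on 1 pair, since CS over control was 0.314 in males and 0.934 in females. Foxa2 was above 1 in both sexes, at 1.39 and 1.26.

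In α7E260A:G no factor was called either, against 1 gene in all (0.00733%). Of the 9 factors 7 were above 0 (median 0.39), but with epithelial scaling Cebpa, Foxa2 and Elf3 turned below 0 and the median was -0.0038, while the median of all genes went from -0.022 to -0.37. The scaling markers again moved with CS, 3 of 5 above 0 in α7E260A:G (median 0.50), with none called. Nkx2-1 was 0.76 ± 0.32 (log2, edgeR unadjusted p = 0.0444, adjusted p = 0.9997), the only factor at an unadjusted p under 0.05, where 1.52% of all genes were higher at that level. CS over control was 1.70 in males and 1.84 in females, and the epithelial scaling left a log2 change of 0.42. The α7E260A:G controls from which it was measured included the lowest libraries for Nkx2-1. Over both genotypes together no factor and no gene was called (0.0%, with 1041 genes at an unadjusted p under 0.05 and 68 called by DESeq2), and the changes of the 9 ran from -0.36 (Etv5) to 0.39 (Sox2).

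The difference between the CS responses of the genotypes was tested directly. No factor passed, and no gene did (0.0%, with 297 genes at an unadjusted p under 0.05 and 7 called by DESeq2). The largest difference was that of Nkx2-1, 0.97 ± 0.44 (edgeR unadjusted p = 0.0588, adjusted p = 0.9996). Nkx2-1, Foxa1 and Klf5 had a ratio of CS to control below 1 in both sexes of α7G and above 1 in both sexes of α7E260A:G, 3 of the 9 factors and 10.3% of all genes. With TMM scaling the same 3 factors and 5.56% of all genes did so, and relative to the epithelial markers Nkx2-1 and Sox2 did, with 1.80% of all genes. For Foxa1 the ratios were 0.887 and 0.641 in male and female α7G and 1.14 and 1.80 in α7E260A:G, and for Klf5 0.759 and 0.663, and 1.16 and 1.85.

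**Figure D4:**
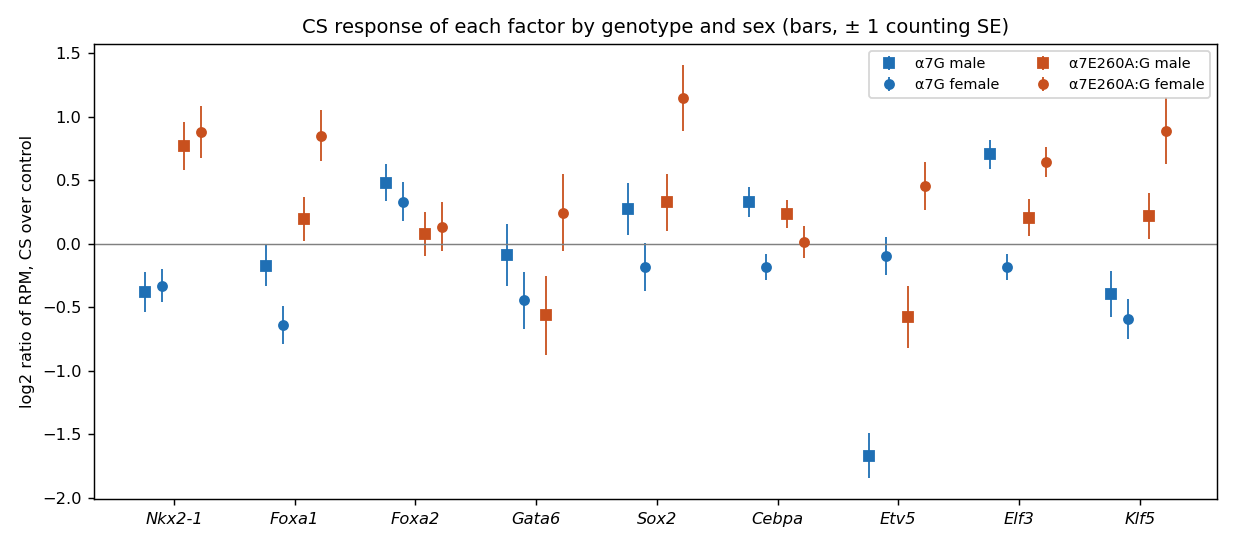
Log2 ratio of RPM in CS over control for the 9 factors tested (y axis), blue for α7G, orange for α7E260A:G, squares for male and circles for female pairs, with bars of ± 1 counting SE. Nkx2-1, Foxa1 and Klf5 have both blue points below 0 and both orange points above it, and the male α7G point of Etv5 is the lowest at -1.67.

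The balance of Foxa1 and Foxa2, whose coding sequences differ in length by 9 bp, was compared within each library, a measure chosen after their values were seen. The ratio of their counts was 1.00 (95% counting interval 0.807 to 1.24) and 1.46 (1.19 to 1.78) in the male and female α7G controls, and 0.636 (0.520 to 0.779) and 0.744 (0.600 to 0.922) after CS. In α7E260A:G it was 1.01 (0.794 to 1.28) and 0.746 (0.566 to 0.983) in controls and 1.09 (0.869 to 1.38) and 1.22 (0.948 to 1.58) after CS. Foxa2 exceeded Foxa1 in both α7G CS libraries and in the female α7E260A:G control. Intervals here and in the plot of levels cover counting error only.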

How the data were processed

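Poly(A) RNA of epithelium-enriched distal lung cells was sequenced as 8 stranded libraries in 4 groups of 2. The authors aligned the reads with STAR to mm9 and counted them on coding sequences with HTSeq and GENCODE M1, and the deposited values are these raw counts per gene, without normalization. Versions and the strand setting of the counting are not given in the sources used here. All 22756 genes were matched to GENCODE M1 for coordinates and CDS length. A gene with 2 entries, Sox4, was left out of its list, and Cebpd and Tfcp2l1 have no entry.

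RPM used library totals (8020726 to 10944100), and Wilson intervals are at 95%. Counts were tested with edgeR 4.0.16 (limma 3.58.1, R 4.3.3) by glmQLFit and glmQLFTest with TMM, in a model of the 4 groups. Benjamini-Hochberg adjustment at 0.05 was taken over the 13637 genes whose mean count reached 10. The fits were first run on simulated counts with larger changes than those of the factors, so power for the factors was not tested. DESeq2 1.42.0, other scalings, filters, a CDS length offset, a sex block and leaving out each library were alternatives. Exact permutation tests were two-sided and written in Python 3.11.15 with numpy 2.4.6. Wilson intervals used scipy 1.17.1, and pandas 2.3.3 and matplotlib 3.10.9 were also used. Motifs were searched in RefSeq promoter windows of GRCm38.p6.

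The male library of each group was replicate 1 and the female replicate 2. The factors and gene lists were chosen with earlier results of these data known. Named genes are the 10 factors, the 3 most abundant of each other list and any list gene called, and others are named as chosen after their values were seen. One list gene, with the counts of its list, is not reported here.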

Additional observations from a re-analysis of the deposited data

Results flagged for a closer look

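For 3 factors the ratio of CS to control lay below 1 in both sexes of α7G and above 1 in both sexes of α7E260A:G. The log2 difference between the 2 responses was 0.975 ± 0.44 for Nkx2-1, 0.699 ± 0.45 for Foxa1 and 0.766 ± 0.68 for Klf5 (SE). The test of that difference by edgeR did not pass for any of them (adjusted p = 0.9996 for each). Relative to the 5 epithelial markers the opposite signs held for Nkx2-1 and not for Foxa1 or Klf5. The female α7E260A:G control, the denominator of the female α7E260A:G ratios, was the lowest library for 7 of 9 factors. The lists of general epithelial markers, other lung factors and endothelial markers were low there too, and the share over all genes was not counted.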

How the results depend on the processing

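Each group held 2 libraries, so 1 library can set a call, and 3 counts equal 0.27 to 0.37 RPM, which left Sox9 untestable. No factor was called under any alternative run except Nkx2-1 between the genotypes by DESeq2. Where values moved, the cause was not tested. Same-sex libraries did not all deviate together (correlation -0.018 to 0.59 over 6 pairs of groups). The main model had no sex term, as the study averaged male and female, so their difference counts as spread. A sex block was used only here. It called no factor in any comparison, with 43 genes between the genotypes (714 with the CDS length offset, 13 without either) and 0 for CS in α7E260A:G.

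Genes called between the genotypes, 13 in the report, were 380 with scaling by 5 epithelial markers (371 higher and 9 lower, against 10 and 3), 6 with a mean count of 200, 69 with no filter, 485 with the CDS length offset, 516 by DESeq2, and 1 to 646 leaving out each library, the highest without the female α7E260A:G control, while 418 were called without the male one. For CS in α7G, with 0 in the report, 980 were called in a fit of the 4 libraries alone and 25 by DESeq2. For CS in α7E260A:G, 1 gene in the report became 0 with library totals, the mean count of 200, the sex block or the 4 libraries alone, 2 with epithelial scaling, with the length offset or with block and offset, 3 with no filter, 35 by DESeq2 and 0 to 142 leaving out a library. The difference of the responses gave 1 gene with the length offset, 7 by DESeq2 and 0 to 97 leaving out a library. CS over both genotypes gave 1 with no filter, 3 with the length offset, 4 with block and offset, 68 by DESeq2 and 0 to 100 leaving out a library, and the upper ends of all 3 came without the male α7E260A:G control. An alternative chosen after seeing the data, the sex block together with epithelial scaling, called 2246 genes between the genotypes (2179 higher, 67 lower), 1 for CS in α7G, 100 for CS in α7E260A:G, 5 for the difference and 406 for CS over both genotypes, and no factor. With it 6 of 9 factors were lower in α7E260A:G (median -0.09).

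Factors at an unadjusted p under 0.05 between the genotypes, 5 in the report, were 0 with epithelial scaling, with or without the sex block, 1 of 2 with the mean count of 200, and 2 to 7 leaving out a library. Over all genes these were 1562 of 13637 in the report, 4780 with epithelial scaling (5459 with the block), 856 of 7131 with the mean count of 200, and 907 to 3020 leaving out a library. Factors whose genotypes did not overlap were 0 relative to epithelial markers and 2 to 4 leaving out a library, where 0.411% and 6.97% to 8.98% of all genes lay lower in α7E260A:G without overlap. The genotype difference (log2) turned with epithelial scaling to 0.52 for Cebpa, 0.17 for Foxa1, 0.0027 for Foxa2 and 0.0613 for Sox2, and with the sex block added to 0.48, 0.13 and 0.0313 for Cebpa, Foxa1 and Sox2. Cebpa ran from -0.24 to 0.0908 leaving out a library. For CS in α7G, epithelial scaling gave -0.11 for Cebpa and -0.14 for Sox2 (-0.10 and -0.13 with the block), and Sox2 was -0.0503 with the length offset and -0.0644 with block and offset. Leaving out a library gave -0.0987 to 0.52 for Cebpa, -0.30 to 0.0456 for Gata6, -0.47 to 0.0251 for Nkx2-1 and -0.0551 to 0.42 for Sox2. For CS in α7E260A:G, epithelial scaling gave -0.24 for Cebpa, -0.0038 for Elf3 and -0.30 for Foxa2 (-0.26, -0.0059 and -0.32 with the block), Etv5 was 0.0111 with library totals, and Foxa2 was -0.00996 with the length offset and -0.0144 with the block added. Leaving out a library gave -0.25 to 0.33 for Cebpa, -0.0548 to 0.71 for Elf3, -0.73 to 0.44 for Etv5, -0.13 to 0.18 for Foxa2 and -0.10 to 1.20 for Klf5.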
